A study of Mus musculus with 4 samples.

Results

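HA-tagged human WDR5 (HA-hWDR5) was mapped by ChIP-seq in mouse embryoid bodies, and 41 of 397 protein-coding genes named Zfp followed by a digit had a peak inside the gene or within 5 kb of either end at one rescue time or the other. The genes were chosen by the presence of a peak, with the summit as the point measured, so how many have one is a description and not a test. The other 356 Zfp genes had no such peak and serve as the comparison. Both groups of cells were Rx:GFP knock-in embryonic stem cells with a Wdr5 knockout and a doxycycline-inducible HA-hWDR5, differentiated into embryoid bodies by the SFEBq method and profiled at day 6. They differed in when doxycycline was given, T12h or T48h, and the labels used here give no starting event for these hours. Both groups were cultured with 5% KSR, and with 2% matrigel given at day 1. Both were crosslinked with 2 uM DSG for 30 min and 1% PFA for 10 min. The only WDR5 with the tag is the human transgene, and the promoter behind it, and whether the line is 1 clone, are not given in the sources used here. Each rescue time had 1 ChIP library and 1 input library, so nothing below can be set against the spread between replicates, and no p-value is given.

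WDR5 is a WD40-repeat protein best known as a core subunit of the complexes that methylate histone H3 on lysine 4, a mark of active gene starts. Most Zfp genes encode proteins with tandem C2H2 zinc fingers, small folds held by a zinc ion that read DNA sequence, and many also carry a KRAB domain, which recruits the corepressor Trim28 and silences target loci, transposable elements among them. These genes commonly lie in arrays that grew by duplication, so neighbouring members can be alike in sequence. The symbol is not a strict family: Zfp36l1 and Zfp36l2, for example, encode CCCH proteins that bind RNA and promote mRNA decay.

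The deposited lists held 1197 peaks at T12h and 660 at T48h, from 55539917 and 67116740 filtered ChIP tags. Each peak has the authors' tag count, a fold over the local background, a score that is 10 times the negative log10 of the peak caller's p-value, and a false discovery rate in percent. These are each peak's own values and cover counting error only. No peak lay within 5 kb of Wdr5 or of Rax, the locus of the GFP knock-in. The files hold peaks and no expression values, so the labelled tissue could not be checked against marker genes.

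At T12h 38 Zfp genes had a peak within 5 kb, which is 9.57% of the 397 (exact binomial 95% interval 6.86 to 12.9), and 5.08% of all protein-coding genes had one by the same rule. At T48h 15 had one, or 3.78% (2.13 to 6.16), beside 2.12% of all protein-coding genes. Peaks of both times were found at 12 Zfp genes, or 3.02% (1.57 to 5.22), beside 1.37% of all protein-coding genes. For either time the shares were 10.3% (7.51 to 13.7) and 5.83%. Since the presence of a peak is the rule, nothing is read from these shares. The counts depend on the peaks admitted: with a deposited false discovery rate of at most 5%, there were 5 genes at T48h and 5 at both times, and the upper 50% of peaks by score gave 17 genes at T12h, 22 at either time and 7 at both. There were 26 genes with a T12h peak alone and 3 with a T48h peak alone. Just inside the limit lay the peaks of Zfp865, 4889 bp away at T12h (36 tags) and 4935 bp away at T48h (29 tags), and a T12h peak 3804 bp from Zfp292 (41 tags). Just outside the limit lay peaks 5405 bp from Zfp775 (64 tags, fold 5.58) and 6092 bp from Zfp707 (46 tags, fold 8.5).

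**Figure D1:**
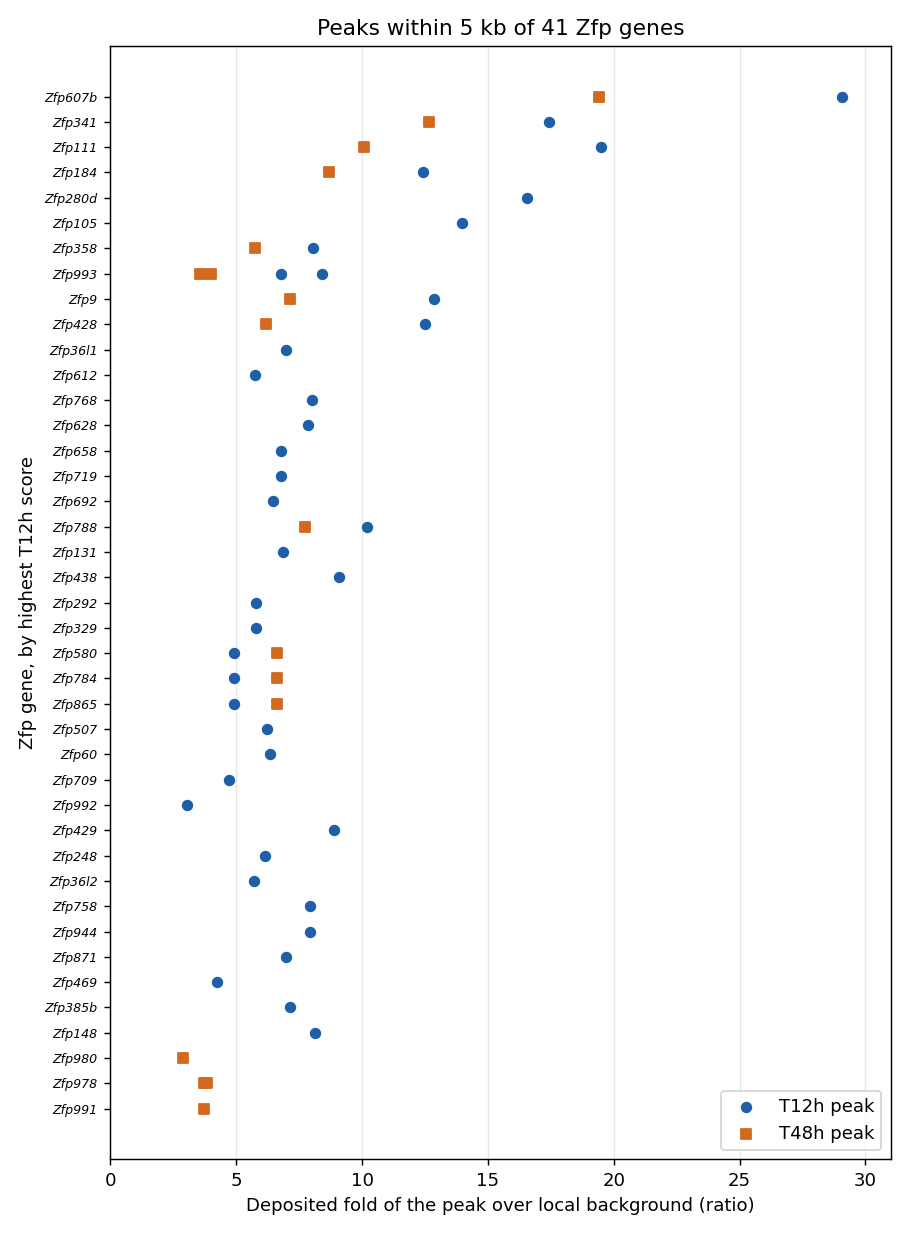
Deposited fold of every peak within 5 kb of the 41 Zfp genes (x axis, ratio over local background), 1 row per gene ordered by the highest T12h score, with T12h peaks as circles and T48h peaks as squares. Zfp607b reaches 29.08 at T12h and 19.42 at T48h, most genes lie between 4 and 10 with a T12h circle alone, and 3 genes at the bottom have T48h squares alone.

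The strongest Zfp sites were found at both times, at Zfp607b, Zfp341, Zfp111 and Zfp184. Zfp607b (chromosome 7, 27674661 to 27706484, mm10) had a peak over its start with 200 tags and a fold of 29.08 at T12h, and with 118 tags and a fold of 19.42 at T48h. It ranked 75th of 1197 and 78th of 660 by score. The summits of the 2 libraries lay 34 bp apart, 73 and 39 bp downstream of the annotated start, and one end of the neighbouring kinase gene Map3k10 also lies within 1 kb of them. Zfp341 (chromosome 2, 154611816 to 154646821), whose human counterpart is a transcription factor that acts on the STAT3 gene, had 248 tags and a fold of 17.43 at T12h. At T48h it had 149 tags and a fold of 12.67, and it ranked 76th of 1197 and 76th of 660. Both genes thus had fewer tags and a lower fold at T48h than at T12h.

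Zfp111 (chromosome 7, 24193215 to 24208149) had 155 tags and a fold of 19.48 at T12h and 70 tags and a fold of 10.06 at T48h. Its summits lay 261 and 354 bp downstream of the start. Zfp184 (chromosome 13, 21945053 to 21960791) had 169 tags and a fold of 12.41 at T12h, and 107 tags and a fold of 8.67 at T48h, with the summits 79 and 177 bp downstream of the start. At T12h 4 peaks at Zfp genes were among the first 100 by score, and at T48h 3 were. Peaks at Zfp genes made up 35 of all 1197 peaks at T12h and 14 of all 660 at T48h, so nothing is read from these small counts.

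Weaker sites seen at both times lay at Zfp9, Zfp358, Zfp428, Zfp788 and at a triplet of neighbours, Zfp784, Zfp580 and Zfp865. Zfp9 had folds of 12.86 and 7.15 at T12h and T48h, with summits 3 bp apart, the smallest distance among the shared sites. Zfp428 had folds of 12.52 and 6.19, and its summits lay 408 bp apart, 347 bp downstream of the start at T12h and 61 bp upstream at T48h. Zfp358 had 89 tags and a fold of 8.06 at T12h, and 33 tags and a fold of 5.76 at T48h. Its T48h score of 60.0 was the lowest among the shared sites.

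Zfp788 had 20 tags at T12h and 31 at T48h, with folds of 10.2 and 7.74. The triplet shared 1 peak per time, with 36 tags and a fold of 4.92 at T12h and 29 tags and a fold of 6.63 at T48h. That peak lay inside Zfp784, 331 bp from its start at T12h and 285 bp at T48h, while Zfp580 begins 73 bp beyond Zfp784 on the other side. Over these 9 pairs of overlapping peaks the fold was higher at T12h in 8, with a median ratio of T12h to T48h of 1.43 and a range of 0.742 to 2.02. Over all 228 overlapping pairs in the lists it was higher at T12h in 196, with a median ratio of 1.47. The median distance between the paired summits was 57 bp at Zfp genes and 58 bp over all pairs, so the pairs at Zfp genes gave numbers close to those of the lists as a whole.

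Zfp280d and Zfp105 led the genes with a T12h peak alone. Zfp280d (chromosome 9, 72274618 to 72363779) had 82 tags and a fold of 16.56, and its score ranked 131st of 1197. Zfp105 (chromosome 9, 122923039 to 122935260) had 87 tags and a fold of 13.98 and ranked 135th. Of the 135 T12h peaks down to that rank, 119 overlapped a T48h peak and 16 did not. The nearest T48h summit was 721 kb from the Zfp280d summit and 1230 kb from that of Zfp105. No T48h peak thus stood near either gene at the cutoff of the peak caller, and the tags of the T48h library at these 2 places were not analysed here.

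The 26 T12h-only genes, Zfp280d and Zfp105 included, held 24 distinct peaks. Their median was 26.5 tags (15 to 276), against 36 over all T12h peaks, and the 276 tags were at Zfp992. The median fold was 6.83 (3.06 to 16.56), against 7.31 over all T12h peaks. A fold of at least 10 was reached at Zfp280d and Zfp105 alone among them. Zfp768 (29 tags, fold 8.03), Zfp612 (55 tags, fold 5.74), Zfp692 (36 tags, fold 6.48), Zfp719 (27 tags, fold 6.8) and Zfp507 (26 tags, fold 6.21) had the summit 138 to 316 bp from a gene end. Zfp60, Zfp871, Zfp709, Zfp248, Zfp385b and Zfp438 likewise had a summit within 1 kb of an end, with 15 to 35 tags. Zfp131, which encodes a protein with a BTB domain beside its zinc fingers, had 25 tags and a fold of 6.87. Its summit lay 64 bp inside the 5′ end of the gene model and 681 bp upstream of the listed start. At Zfp429 (17 tags, fold 8.88) the summit lay inside the gene, 2673 bp from its start. At Zfp469, whose human counterpart is mutated in brittle cornea syndrome, it lay 3273 bp inside an end (40 tags, fold 4.23).

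The lowest T12h scores among the members belonged to Zfp148 (50.61), Zfp385b (53.98) and Zfp469 (55.0). Zfp148 encodes a transcription factor that binds GC-rich DNA. Its peak held 18 tags with a deposited false discovery rate of 14.31%, and the summit lay 5 bp upstream of the start. A score of 50 is the limit of the lists because of the p cutoff, so these 3 peaks were close to it.

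Among the 25 Zfp genes listed for a textbook role, 3 had a T12h peak (Zfp148, Zfp36l1 and Zfp36l2) and 0 had a T48h peak. Over all 397 Zfp genes the shares were 9.57% and 3.78%, and no test of this short list was made. The Zfp36l1 summit was 2699 bp upstream of its start (37 tags, fold 6.96), and that of Zfp36l2 was 555 bp beyond an end (20 tags, fold 5.71). No peak within 5 kb was listed for Zfp42, the pluripotency marker also called Rex1, for Zfp57, which protects imprints, for Zfp809, which silences retroviral DNA, or for Zfp281, Zfp143, Zfp521, Zfp423 and Zfp462.

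The peaks at Zfp genes found at T48h alone all lay in 1 array on chromosome 4. Between 145510759 and 147849126 the annotation lists 16 Zfp genes, and 5 of them were members: Zfp992 with a T12h peak, Zfp980, Zfp978 and Zfp991 with T48h peaks, and Zfp993 with 2 peaks at each time, none of which overlapped a peak of the other time. Of the 14 T48h peaks at Zfp genes 5 lay in this array and none of those overlapped a T12h peak, while all 9 outside it did. The 5 had folds of 2.87 to 4.01 and widths of 819 to 3115 bp, with 127 to 486 tags. The 9 outside it had folds of 5.76 to 19.42, widths of 252 to 794 bp and 29 to 149 tags. At T48h the 5 array peaks at Zfp genes were therefore wider and lower in fold than the 9 outside the array. The ranges of both measures did not overlap. Over all T48h peaks the folds ran from 2.49 to 78.16 and the widths from 73 to 9121 bp. The stretch of chromosome 4 around the array held 10 T48h peaks in all, with folds of 2.87 to 4.95 and a median width of 1290 bp. At T12h it held 9 (folds 3.06 to 8.4, median width 1168 bp). Low fold and large width there are thus not read as a trait of peaks at Zfp genes.

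At T12h the 3 peaks at Zfp genes in the array had folds of 3.06, 6.77 and 8.4. The 2 in Zfp993 lay far from the ends of a gene model of 478623 bp. Zfp980 had the widest T48h peak of the set (3115 bp, 486 tags, fold 2.87), 25319 bp from its start. Zfp978 had 2 T48h peaks (folds 3.83 and 3.71), and the second was also counted for Zfp991, 3106 bp away from that gene. Genes of such an array can share sequence, and how the authors placed reads that match several copies is not given in the sources used here, so the values at these 5 genes are uncertain. Whether read placement plays a part in them was not tested. The array was singled out after its values had been seen.

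**Figure D2:**
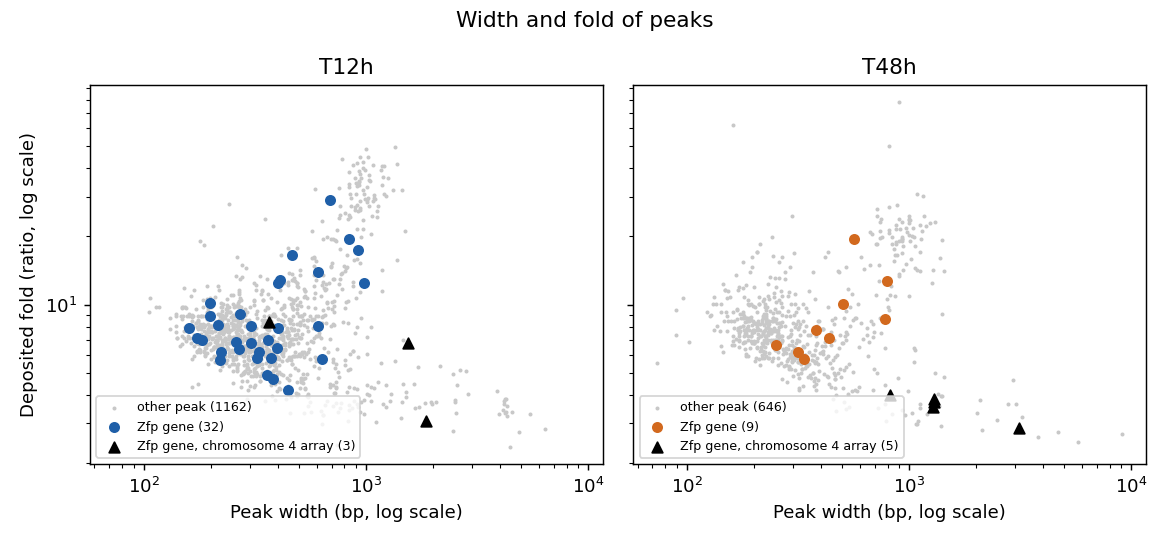
Width (x axis, bp, log scale) and deposited fold (y axis, ratio, log scale) of every peak at T12h (left) and T48h (right), with peaks at Zfp genes as coloured circles, those of the chromosome 4 array as black triangles and all other peaks in grey. At T48h the 5 triangles lie at folds of 2.87 to 4.01 and widths of 819 bp or more, apart from the 9 circles.

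The folds of the peaks at Zfp genes were set beside those of the whole lists. At T12h 35 distinct peaks had a median fold of 7.14 (3.06 to 29.08), against 7.31 over all T12h peaks and 7.58 over peaks within 5 kb of any protein-coding gene. Their median tag count was 36, the same as over all T12h peaks. At T48h 14 distinct peaks had a median fold of 6.41 (2.87 to 19.42), against 7.66 over all T48h peaks, and the median outside the chromosome 4 array was 7.74. Their median tag count was 112.5 against 32.5 over all T48h peaks, and their median width 670 against 297 bp. Outside the array the 9 peaks had medians of 51 tags and 435 bp. By score, 71.4% of T48h peaks at Zfp genes were in the upper 50% of the list, against 60.5% near any protein-coding gene. At T12h the shares were 48.6% and 57.2%. Of the T12h peaks at Zfp genes 9 overlapped a T48h peak, or 25.7%, against 22.8% of those near any protein-coding gene. Of the T48h peaks 9 overlapped a T12h peak, or 64.3%, against 54.1%.

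Where a start is listed, most members had a summit within 1 kb of it. Starts and strands came from the RefSeq promoter table, which held 331 of the 397 Zfp genes and 31 of the 41 members. At T12h 22 of 30 members with a listed start had a summit within 1 kb of it, or 73.3%, against 62.7% of all protein-coding genes with a peak within 5 kb. At T48h 8 of 11 did, or 72.7%, against 53.1%. Of the 22 at T12h the summit was downstream of the start in 16 and upstream in 6, and of the 8 at T48h it was downstream in 7 and upstream in 1. Over all protein-coding genes it was downstream in 320 of 554 at T12h and in 117 of 195 at T48h. The bin from 0 to 250 bp downstream held 33.3% of the members at T12h and 22.5% of all protein-coding genes, so a summit just inside the gene was the commonest position in both.

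**Figure D3:**
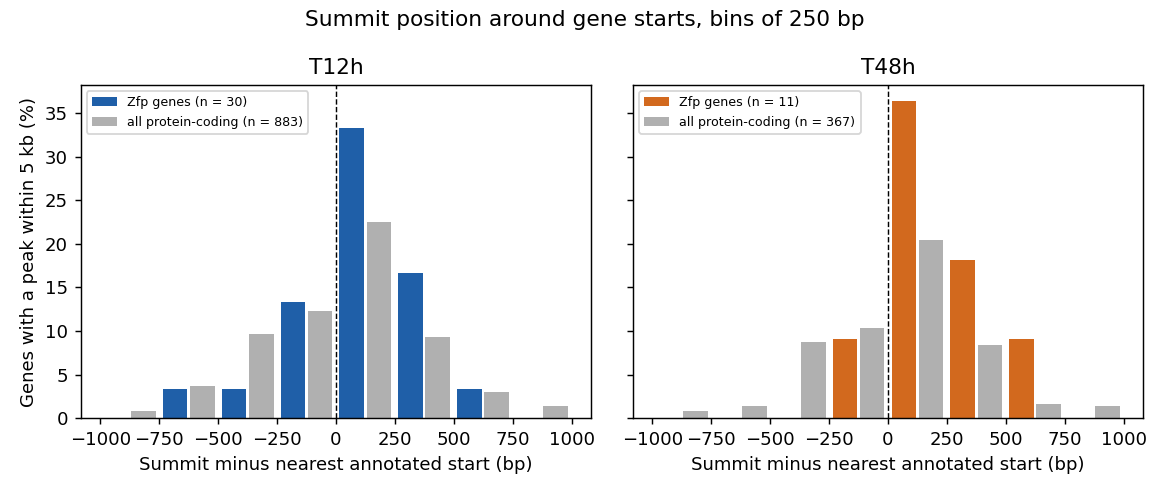
Share of genes with a peak within 5 kb (y axis, percent) by the position of the summit relative to the nearest annotated start (x axis, bp, bins of 250 bp, positive values downstream), for Zfp genes in colour and all protein-coding genes in grey, at T12h (left) and T48h (right). The tallest bar of each panel is the bin from 0 to 250 bp, with 33.3% of 30 Zfp genes at T12h and 36.4% of 11 at T48h.

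Not every peak counted for a Zfp gene lay closest to that gene. For 33 of the 41 members at least 1 peak had the member as its nearest protein-coding gene, and for 8 none had. The Zfp628 peak (40 tags, fold 7.87) lay 26 bp from the start of Nat14 and 609 bp beyond Zfp628. That of Zfp329 (25 tags, fold 5.8) lay inside Zscan18, another zinc finger gene, 219 bp from its start. The Zfp36l1 peak was nearer to the predicted gene Gm52006. In the other 5 cases the nearest gene was itself a Zfp gene: Zfp784 for Zfp580 and Zfp865, Zfp719 for Zfp658, Zfp944 for Zfp758, and Zfp978 for Zfp991. By starts, 24 of the 41 members had a peak whose nearest listed start was their own, and 10 members have no listed start. An end of the protein-coding gene Gm46390 lay within 1 kb of the Zfp131 summit. At Zfp788, Zfp507, Zfp871, Zfp148 and Zfp36l2 an end of a lncRNA gene did.

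Promoter sequences are shown for 5 members whose summit falls inside the RefSeq window of 250 bases before to 50 bases after the start (GRCm38.p6, the build mm10, 5′ to 3′ on the strand of the gene). They were taken to cover the strongest site of both times (Zfp607b), 2 weaker sites of both times (Zfp358 and Zfp428), the leading T12h-only site (Zfp280d) and a start shared by 2 Zfp genes (Zfp758). Capitals mark matches, on either strand, to 9 short motifs searched in every promoter. These were CACGTG (the E-box), GGCGGGA (a core of E2F sites), AAGATGG (found in YY1 sites), CCGGAAG (a core of ETS sites), GGGCGG (the GC box), CCAAT (the NF-Y box), TATAAA (the TATA box), TCGCGA (a palindrome with 2 CG dinucleotides) and GCGCATG (part of NRF1 sites). The GC box GGGCGG can overlap the E2F core GGCGGGA, and a match describes the letters alone.
Zfp607b, chr7:27674411-27674710, plus strand: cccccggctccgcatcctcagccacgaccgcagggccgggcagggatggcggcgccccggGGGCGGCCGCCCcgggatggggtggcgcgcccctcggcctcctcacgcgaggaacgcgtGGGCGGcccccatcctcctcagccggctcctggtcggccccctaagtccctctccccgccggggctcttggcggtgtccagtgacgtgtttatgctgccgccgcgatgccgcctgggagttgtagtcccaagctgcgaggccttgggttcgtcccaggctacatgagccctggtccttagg
Zfp358, chr8:3492888-3493187, plus strand: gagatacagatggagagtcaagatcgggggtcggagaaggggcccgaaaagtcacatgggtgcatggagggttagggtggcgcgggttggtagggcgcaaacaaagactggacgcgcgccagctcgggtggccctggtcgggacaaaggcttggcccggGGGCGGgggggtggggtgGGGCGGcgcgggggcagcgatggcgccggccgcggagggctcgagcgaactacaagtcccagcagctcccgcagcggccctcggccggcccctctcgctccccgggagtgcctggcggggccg
Zfp428, chr7:24506837-24507136, plus strand: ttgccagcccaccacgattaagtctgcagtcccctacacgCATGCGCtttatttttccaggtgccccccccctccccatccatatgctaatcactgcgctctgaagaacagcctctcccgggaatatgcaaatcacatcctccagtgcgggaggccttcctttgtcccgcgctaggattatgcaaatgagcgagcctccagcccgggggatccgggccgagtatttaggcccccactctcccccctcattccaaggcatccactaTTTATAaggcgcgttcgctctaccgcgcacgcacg
Zfp280d, chr9:72274638-72274937, plus strand: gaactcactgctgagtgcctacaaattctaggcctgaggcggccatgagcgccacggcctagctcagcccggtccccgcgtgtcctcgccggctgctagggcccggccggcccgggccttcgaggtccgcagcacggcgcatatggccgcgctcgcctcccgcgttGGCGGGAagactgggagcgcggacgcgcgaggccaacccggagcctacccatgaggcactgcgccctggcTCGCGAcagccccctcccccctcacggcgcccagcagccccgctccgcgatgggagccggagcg
Zfp758, chr17:22361213-22361512, plus strand: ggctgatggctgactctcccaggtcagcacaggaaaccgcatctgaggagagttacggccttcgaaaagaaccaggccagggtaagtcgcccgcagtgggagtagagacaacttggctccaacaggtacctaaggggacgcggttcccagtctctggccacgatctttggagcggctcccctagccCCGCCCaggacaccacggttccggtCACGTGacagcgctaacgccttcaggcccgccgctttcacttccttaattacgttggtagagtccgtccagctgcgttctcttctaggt

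The Zfp607b and Zfp358 windows were GC-rich, with 73.3% and 72.0% G or C and 31 CG dinucleotides each, and held GGGCGG boxes upstream of the start. In Zfp607b the T48h summit lay 39 bp downstream of the start, inside the window, and the T12h summit just beyond it at 73 bp. The Zfp280d window had 37 CG dinucleotides, with GGCGGGA beginning 84 bases and TCGCGA 14 bases before the start, and its T12h summit was 104 bp upstream. The Zfp428 window was lower in GC (58.0%) with 19 CG dinucleotides. Its matches were GCGCATG, 210 bases before the start, and TATAAA, 15 bases after it, both on the opposite strand.

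Zfp758 and Zfp944 (chromosome 17) are arranged head to head, with gene models 2 bp apart, and shared 1 T12h peak of 15 tags and a fold of 7.92. The summit lay 106 bp upstream of the Zfp758 start and 43 bp downstream of the Zfp944 start. A CACGTG E-box, the core sequence that MYC and related factors bind, begins 39 bases before the Zfp758 start, and the same site counts for Zfp944.

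Promoters were taken 1 per gene, at the outermost start in the promoter table, which can lie inside the gene model. The median CpG content of the members lay nearer to that of protein-coding genes with a peak than to that of Zfp genes without one. Protein-coding genes with a peak include the members, and no test of these differences was made. The ratio of observed to expected CG dinucleotides had a median of 0.77 in the 31 members with a sequence (0.245 to 0.971) and of 0.597 in 300 Zfp genes without a peak. It was 0.577 over 17492 protein-coding genes and 0.774 over 1016 protein-coding genes with a peak. A ratio of at least 0.6 was reached by 25 of the 31, or 80.6% (exact binomial 95% interval 62.5 to 92.5), and by 150 of the 300 (interval 44.2% to 55.8%). It was reached by 71.3% of the protein-coding genes with a peak, a share inside the members' interval, and by 48.4% of all. Among the 22 members with a summit within 1 kb of a start, 86.4% reached it. Among the strong sites Zfp341 had a ratio of 0.971 and Zfp607b of 0.771, while Zfp111 had 0.398 and Zfp788 0.368 and were found at both times too. A high ratio was thus common among members but was not shared by each of them.

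**Figure D4:**
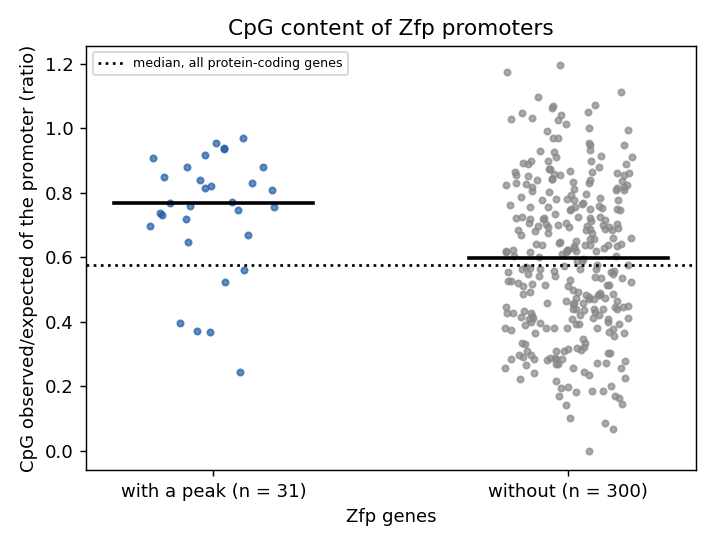
Ratio of observed to expected CG dinucleotides in the promoter (y axis) of Zfp genes with a peak within 5 kb (31 points, left) and without one (300 points, right), with black bars at the medians and a dotted line at the median of all protein-coding genes. The medians are 0.77 and 0.597, and the points of both sets overlap over most of the range.

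The motif counts in the members were small. They cover all 31 members with a sequence, of which 22 had a summit within 1 kb of a start. CACGTG was present in 5 of 31 promoters, or 16.1% (exact binomial 95% interval 5.45 to 33.7), against 6.33% of Zfp promoters without a peak, 11.3% of protein-coding genes with a peak and 7.91% of all. The 5 were those of Zfp292, Zfp507, Zfp871, Zfp758 and Zfp944, all of them T12h-only genes, and the last 2 share 1 site. The Zfp292 summit lay 3839 bp from its start. Among the 22 members with a summit within 1 kb of a start, CACGTG was present in 18.2% and CCAAT in 22.7%. CCAAT was present in 8, or 25.8% (11.9 to 44.6), against 52.0% (46.2 to 57.8) of those without a peak, 35.4% of protein-coding genes with a peak and 39.2% of all. GGGCGG was present in 51.6% of members, 43.7% of Zfp promoters without a peak, 58.5% of protein-coding genes with a peak and 46.3% of all.

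The other 6 motifs were each present in 1 to 4 member promoters. The ETS core was in 12.9% of members, 23.0% of Zfp promoters without a peak, 16.4% of protein-coding genes with a peak and 11.9% of all. In the same order of sets, the E2F core was in 12.9%, 14.0%, 22.8% and 15.0%, and the YY1 letters in 12.9%, 7.67%, 6.59% and 6.35%. The NRF1 letters were in 12.9%, 6.0%, 7.97% and 4.88%, the TATA box in 9.68%, 6.0%, 8.66% and 13.3%, and the palindrome in 3.23%, 5.0%, 6.2% and 3.45%. For each of these 6 the interval of the members' share spans the share over all promoters and that over genes with a peak.

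Members and other Zfp genes had nearly the same median length. The median gene length was 18.012 kb in members and 17.9855 kb in the others. Another Zfp gene lay within 100 kb of 25 of the 41 members, or 61.0%, and of 201 of the 356 others, or 56.5%. Chromosome 7 carried the most Zfp genes, 93, and the most members, 14, and 7 of the 12 genes with peaks at both times were there. Its share of Zfp genes with a peak was 15.1%, against 5.17% of all its protein-coding genes. Some of these members rest on the same peak: Zfp784, Zfp580 and Zfp865 on 1 per time, and Zfp658 and Zfp719 on 1 at T12h. The peaks of Zfp628 and Zfp329 lay nearer to Nat14 and Zscan18. On chromosome 8 the shares were 16.0% of 25 Zfp genes and 11.8% of protein-coding genes, so a large share of all genes there had a peak. The highest share was on chromosome 4, with 22.2% of 27 Zfp genes against 6.55% of protein-coding genes, and 5 of its 6 members lay in the array described above. Members lay on 12 of the 20 chromosomes that carry a Zfp gene. None of the 19 Zfp genes of chromosome 5 or the 11 of chromosome 15 was a member. Of all protein-coding genes there 5.04% and 4.64% had a peak, so nothing is read from these small counts.

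Neighbours did not always share a state. Zfp607b and Zfp60 lie 24.9 kb apart, and Zfp60 had a T12h peak alone (24 tags, fold 6.35) 36 bp downstream of its start. Zfp9 and Zfp248 lie 6.25 kb apart, and Zfp248 had a T12h peak alone, with 22 tags and a fold of 6.16. Among Zfp genes without a peak the nearest summit was a median of 418 kb away at T12h and 792 kb at T48h, and 302 of the 356 had none within 50 kb at either time. These distances follow in part from the rule. They were not computed for other protein-coding genes without a peak, so they are not read as a trait of Zfp genes.

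Other zinc finger families and the partners of KRAB zinc finger proteins were counted by the same rule. Of 41 Zbtb genes 4 had a T12h peak within 5 kb and 0 a T48h peak, and of 16 Zscan genes 1 had one, Zscan18, at T12h. Zbtb6 and Zbtb26 shared 1 peak (fold 6.07), and the peaks of Zbtb11 and Zbtb48 lay 4810 and 4124 bp from the gene. Of 11 Zkscan genes Zkscan2 (fold 7.25) had a peak at T12h and Zkscan17 had one at both times (8.33 and 6.5). Of 17 Klf genes Klf9 had a T12h peak, 4868 bp away, and Klf8 a T48h peak, and of 5 Zic and 3 Zfhx genes none had one. Of 16 Zc3h genes, which encode CCCH proteins, Zc3h10 had a peak at both times (36.08 and 24.52), 898 and 901 bp beyond the gene. Of 24 Zdhhc genes, whose zinc-binding proteins are palmitoyltransferases, Zdhhc16 had a T48h peak (fold 7.85).

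Of 13 genes for KRAB cofactors and their partners, Smarcad1, a chromatin remodeler, had a T12h peak (28 tags, fold 10.18) and Trim33 a T48h peak 3871 bp away (17 tags, fold 6.91). None was listed for Trim28, the corepressor that KRAB domains bind, or for Setdb1, which methylates lysine 9 of histone H3 in that pathway. Beside these counts stand the 5.08% and 2.12% of all protein-coding genes with a T12h or T48h peak, and no test of these small lists was made.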

How the data were processed

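Each ChIP library came as 1 table of peaks, which MACS 1.4.2 made against the control library with a p cutoff of 1e-05 and 1 tag kept per position, per the file headers. Per the submitters' processing notes, Bowtie2, SAMtools 1.5, HOMER 4.9.1, deepTools and the mm10 build were used. The tag count of a peak is the whole number of tags deposited by the authors, not normalised. The deposited score is 10 times the negative log10 of the p-value, the deposited fold is a ratio to the local background, and a false discovery rate in percent was deposited too. Filtered control tags numbered 54011542 at T12h and 61209779 at T48h.

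Genes came from RefSeq for GRCm38.p6 (21887 protein-coding genes on the assembled chromosomes). A gene had a peak when the summit (start + summit - 1) lay inside it or within 5 kb, so 1 peak can count for several genes. Peaks overlapped when they shared at least 1 bp. Starts came from the RefSeq promoter table, matched by symbol. Members and lists were chosen with earlier results of these data known. Named were all genes with T48h peaks, the 15 highest T12h scores, the 3 lowest scores per time, those next to the 5 kb limit and textbook genes, and other members more briefly. Summaries used scipy 1.17.1, pandas 2.3.3, numpy 2.4.6 and matplotlib 3.10.9 under Python 3.11.15, and the assignment was tested on simulated data. Protein features (zinc fingers, KRAB) and reads were not analysed here. Alternatives covered the distance, score, false discovery rate, overlap, chromosomes and genes counted.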

Additional observations from a re-analysis of the deposited data

How the results depend on the processing

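Leaving out the chromosome 4 array was chosen after seeing the data. Of 70 recomputed values, 64 kept their size (counts within 1.5 times, medians within their 95% order-statistic interval) and 6 moved. Limiting each list to the 50% of peaks with the highest scores gave 17 Zfp genes with a peak at T12h, 22 at either time and 7 at both, and 13 with a summit within 1 kb of the start. A deposited false discovery rate of at most 5% left 5 genes at T48h and 5 at both times. Both settings use fewer peaks. Alternatives on the patterns for zinc fingers and KRAB domains need protein sequences and were not run. No paired analysis was possible because there was only 1 library per group. Of the T12h peaks at Zfp genes, 7 held 20 or fewer tags, so their values have wide counting error.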

Other observations

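Zfp symbols that the annotation does not give as protein-coding numbered 19, and 2 of them had a T12h peak within 5 kb. Zfp783, a lncRNA gene in the annotation, had 64 tags and a fold of 10.91, with the summit 21 bp downstream of its start. The pseudogene Zfp520-ps had 40 tags and a fold of 6.38, with the summit inside it. None of the 19 had a T48h peak. Over all protein-coding genes 5.08% had a T12h peak and 2.12% a T48h peak by the same rule, so nothing is read from these small counts.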
